A study of Arabidopsis thaliana with 12 samples.

Results

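Cellobiose and oligogalacturonides (OGs), both fragments of the plant cell wall, were compared directly in roots of Arabidopsis thaliana. The comparison set the 3 arrays of cellobiose-treated roots against the 3 arrays of OG-treated roots, chosen by their treatment label, which is 6 of the 12 arrays of the study. Every probe set of the array other than the manufacturer's controls was tested, 22746 in all. After 25 min the responses to the fragments differed clearly at few of these. Only 10 probe sets passed the test, and 8 of them had more transcript with cellobiose. BGLU27, which encodes a beta-glucosidase, had the smallest p and was higher with cellobiose by 2.77 on the log2 scale.

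Cellulose and pectin are major polysaccharides of the plant cell wall. Cellobiose is a disaccharide of glucose released when cellulose is broken down, and OGs are chains of galacturonic acid released from the pectin homogalacturonan. Plants perceive such fragments as signs of wall damage, and OGs are known to trigger calcium influx, production of reactive oxygen and the early transcription of defence genes. Chitin is a polymer of fungal cell walls, and its fragments are sensed by receptor kinases as a sign of a microbe.

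All plants were Col-0 seedlings of 7 days, and the RNA came from their roots. The 4 groups had 3 biological replicates each and received cellobiose, OGs, chitin (chito-oligomers in the design text) or no elicitor (control), all for 25 min. No dose of either fragment is known here, so the fragments are compared at one time point and at doses that cannot be assumed to match. The RNA samples had been screened by the submitters through qRT-PCR of WRKY30, whose level was not analysed here. Whole roots were used, so transcript lost or gained in some cells cannot be told apart from a change in the number of those cells. Each ATH1 array reads a gene through a probe set, and the values are log2 intensities. The design text names GCRMA for their normalisation and the processing notes name Affymetrix Expression Console, and which of them made the deposited values is not settled here. Array medians lay between 6.50 and 6.60, so a shift common to all genes would not show. The precision of every value below is limited by the number of arrays. Root markers were high on the 6 arrays. PYK10, a beta-glucosidase of root endoplasmic reticulum bodies, read 13.28, 13.85 and 13.44 with cellobiose and 13.71, 13.21 and 13.49 with OGs.

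The profiles as a whole were close to each other. Correlations across probe sets were 0.988 to 0.992 among the cellobiose arrays, 0.986 to 0.990 among the OGs arrays, and 0.984 to 0.993 between a cellobiose and an OGs array. Probe sets are not independent replicates, and these values describe the arrays only. The difference, cellobiose minus OGs, had a median of -0.01 over all probe sets and a median standard error (SE) of 0.11. In the limma fit its 95% interval stayed within 2-fold either way for 21726 probe sets (95.5% of those tested), which bounds the differences there but does not show that the fragments act alike. Of the tested probe sets, 34.6% had a mean under 5 on the log2 scale, a range that may be at background. Narrow intervals there say little about regulation. A 2-fold difference or more was estimated for 131 probe sets (0.576%), 98 of them higher with cellobiose (0.431%) and 33 lower (0.145%).

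At an adjusted p under 0.05 (limma with Benjamini-Hochberg adjustment over all probe sets), 10 probe sets were called, 0.044% of those tested. Of these, 8 (0.0352%) were higher and 2 (0.00879%) lower with cellobiose. In none of the 10 did the cellobiose and OGs arrays overlap, which also fixes the same direction in 3 of 3 replicate pairs. The 10 were chosen by their p on these same arrays, so this is no separate support. Over all probe sets, 2028 (8.92%) had groups without overlap, with cellobiose above in 872 (3.83%) and OGs above in 1156 (5.08%), so absence of overlap alone was common. An unadjusted p under 0.05 was reached by 1237 (5.44%), namely 597 higher (2.62%) and 640 lower (2.81%) with cellobiose. The threshold ran through a dense stretch. Of the 10 calls, 8 had an adjusted p of 0.0481 or 0.0489, and the next probe sets outside were 253476_at at 0.0715 and AT3G15630 at 0.0739. All calls but those of BGLU27 and 257748_at thus stood just inside.

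**Figure D1:**
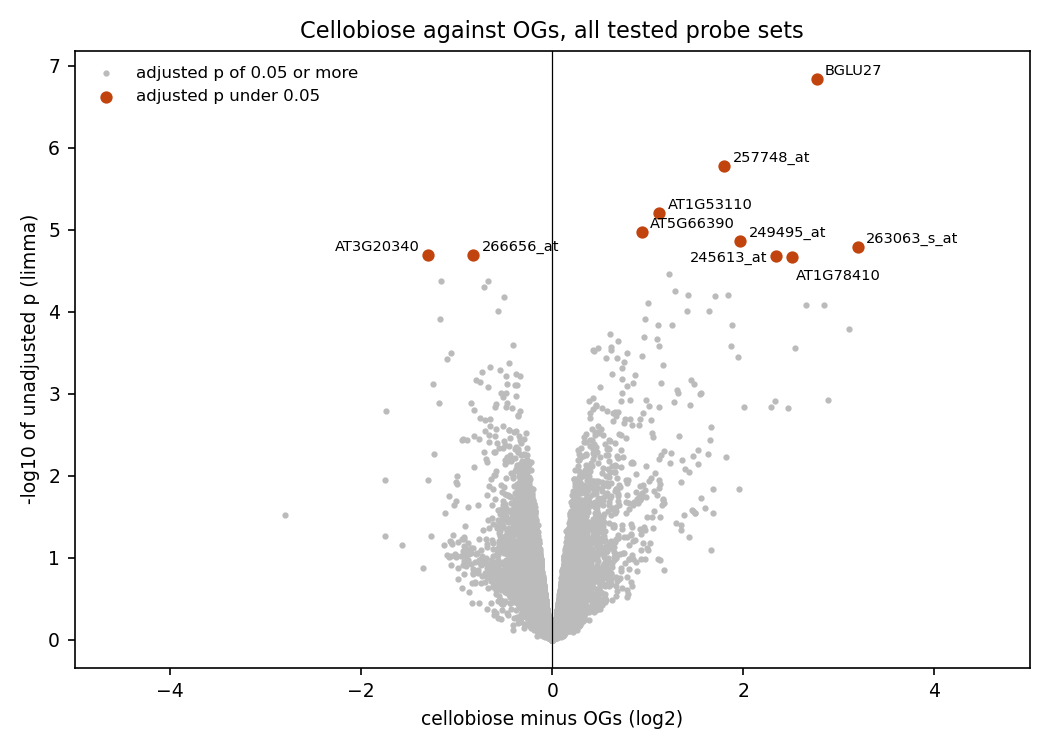
Difference between cellobiose and OGs (log2, horizontal axis) against the -log10 of the unadjusted limma p (vertical axis), with a point for each tested probe set. The 10 called probe sets are coloured and named, 8 on the cellobiose side and 2 on the OGs side, and BGLU27 stands highest.

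Enzymes acting on sugars and on the wall were among the called genes. BGLU27 (probe set 251456_at, AT3G60120) belongs to the beta-glucosidases, a family that removes glucose from the end of a glycoside or an oligosaccharide. It read 7.44, 7.47 and 6.51 with cellobiose, against 4.53, 4.18 and 4.40 with OGs. The difference was 2.77 ± 0.19 (SE from the fit of all 12 arrays, n = 3 per group; 95% interval 2.33 to 3.20; limma adjusted p = 0.00329). By pair it was 2.91, 3.29 and 2.11, and the SE and interval do not measure the spread of these pairs. Its OGs arrays lay close to the chitin mean of 4.38 and the control mean of 3.91, and only the cellobiose arrays stood apart. Against control the difference was 3.23 ± 0.19 with cellobiose (adjusted p = 5.7e-05) and 0.46 ± 0.19 with OGs (adjusted p = 0.268), comparisons that share their control arrays. Cellobiose also exceeded chitin, by 2.75 ± 0.19 (adjusted p = 0.00172), the 1 probe set higher with cellobiose in that comparison (0.0044% of those tested). The low levels of BGLU27 lie in a range where 34.6% of probe sets have their mean, under 5 on the log2 scale, and no detection calls were used here, so its size relative to OGs rests on a level that may be at background.

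AT5G66390 encodes PRX72, a class III peroxidase, an enzyme family of the wall that works with hydrogen peroxide and is known for its part in lignin formation. It had 10.32, 10.57 and 10.15 with cellobiose, against 9.56, 9.60 and 9.07 with OGs. It differed by 0.94 ± 0.11 (SE from the same fit, n = 3 per group; limma adjusted p = 0.0489). The OGs mean of 9.41 lay beside the chitin mean of 9.45 and the control mean of 9.67, so its cellobiose arrays were the high ones, as for BGLU27. The pattern was thus shared by both of the called genes with a known enzyme product.

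The other called genes have a locus only, with no name or role in the annotation used here. AT1G78410 had 8.20, 8.34 and 8.57 with cellobiose, against 4.96, 6.27 and 6.35 with OGs. Its difference was 2.51 ± 0.31 (limma adjusted p = 0.0489), and both groups lay above the control mean of 3.78. AT1G53110 had 6.19, 6.53 and 6.34 with cellobiose, against 5.02, 5.15 and 5.55 with OGs, a difference of 1.12 ± 0.12 (limma adjusted p = 0.0481). Here too both fragments exceeded the control mean, of 4.70, cellobiose by more. AT3G20340 was lower with cellobiose. It had 7.59, 7.69 and 7.56 with cellobiose, against 8.57, 8.93 and 9.24 with OGs, a difference of -1.30 ± 0.16 (limma adjusted p = 0.0489). Its cellobiose arrays were at the chitin mean of 7.58, and its OGs arrays between that and the control mean of 9.50.

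The remaining 5 called probe sets have no single named gene, since 4 are not listed in the annotation and 263063_s_at is listed with several genes. The largest of all called differences, 3.20 ± 0.39 (limma adjusted p = 0.0489), was that of 263063_s_at, which had 8.52, 9.42 and 8.50 with cellobiose, against 6.01, 4.96 and 5.86 with OGs. 257748_at had 10.95, 10.57 and 10.84 with cellobiose, against 8.82, 8.72 and 9.42 with OGs, a difference of 1.80 ± 0.17 (limma adjusted p = 0.0193). Both fragments stood well above the control mean of 6.55 there. 249495_at had 6.46, 6.27 and 6.37 with cellobiose, against 4.38, 4.39 and 4.41 with OGs, a difference of 1.97 ± 0.23 (limma adjusted p = 0.0489). Its OGs arrays were near the control mean of 4.04, while chitin averaged 8.14. 245613_at had 9.39, 8.71 and 8.75 with cellobiose, against 6.32, 6.24 and 7.26 with OGs, and differed by 2.34 ± 0.29 (limma adjusted p = 0.0489). The last, 266656_at, was lower with cellobiose, at 8.73, 8.87 and 8.65, against 9.58, 9.52 and 9.61 with OGs. Its difference was -0.82 ± 0.10 (limma adjusted p = 0.0489), and its OGs arrays lay just under the control mean of 9.77.

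Set against control in the same fit, all 10 also passed with cellobiose, where 8.64% of all probe sets did, and 4 passed with OGs, where 4.06% did. These comparisons share arrays with each other and with the direct one and are given only to place the levels. The 4 were 257748_at, AT1G53110, 245613_at and AT1G78410, which rose with either fragment, as 4.73% of all probe sets did with cellobiose and 3.18% with OGs.

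**Figure D2:**
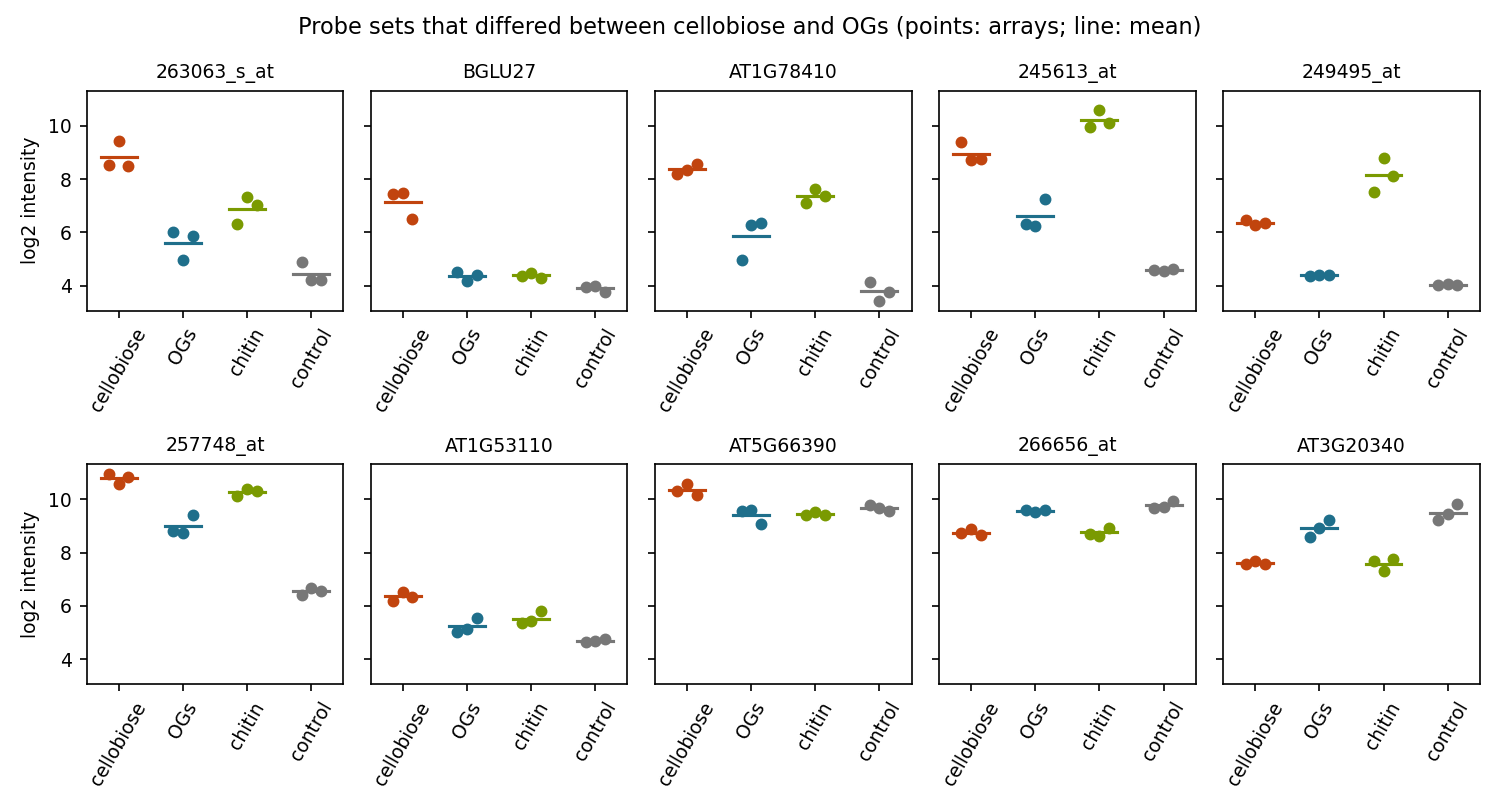
Log2 intensity of the 10 called probe sets on each array (points; n = 3 per treatment), with the mean as a line, for cellobiose, OGs, chitin and control. The cellobiose and OGs points do not overlap in any panel, and for BGLU27 and AT5G66390 the OGs, chitin and control points lie close together below the cellobiose points.

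These calls rest on the spread shared by all 12 arrays. With only the 6 cellobiose and OGs arrays in the fit no probe set passed (limma, lowest adjusted p = 0.192, with 888 at an unadjusted p under 0.05), although the estimates are the same. BGLU27 alone stayed past the threshold when any single cellobiose or OGs array was left out, with a difference of 2.59 to 3.06 and a limma adjusted p of at most 0.0477.

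Several larger differences did not pass the test. An unadjusted p under 0.05 in the limma fit was reached by 5.44% of all probe sets, so reaching it says little alone. Among the 13513 probe sets of a single gene, 589 were not called but differed the same way in 3 of 3 pairs with such a p. The 8 largest of these on the cellobiose side were AT2G23270 (2.89), AT1G22810 (2.84), AT4G15975 (2.54), AT5G14700 (2.47), DLAH (2.01), AT5G37490 (1.87), CCR2 (1.82) and CML37 (1.69). DLAH encodes a DAD1-like acylhydrolase, from a family of lipases that free fatty acids from membrane lipids. It had 11.88, 11.46 and 12.10 with cellobiose, against 9.12, 9.38 and 10.90 with OGs (difference 2.01 ± 0.45, SE; limma adjusted p = 0.31). The groups did not overlap, but OGs replicate 3 was more than 1 log2 unit above the other OGs arrays. CCR2 encodes a cinnamoyl-CoA reductase, an enzyme of monolignol synthesis. It had 9.67, 9.67 and 8.95 with cellobiose, against 8.40, 6.13 and 8.30 with OGs. CML37 encodes a calmodulin-like calcium sensor. It had 10.19, 7.40 and 9.21 with cellobiose, against 7.54, 6.24 and 7.96 with OGs, and the groups overlapped.

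On the OGs side the 8 were AT3G05730 (-2.80), AT3G48650 (-1.30), ATL8 (-1.24), AT5G61590 (-1.19), AT3G16670 (-1.08), AT4G16447 (-1.01), AT2G21560 (-1.0) and AT1G76590 (-0.89). ATL8 encodes a RING-type protein of a ubiquitin ligase family, and its transcript is known to fall when sugar is supplied. It had 7.06, 7.17 and 6.85 with cellobiose, against 8.36, 8.27 and 8.17 with OGs (difference -1.24 ± 0.25; limma adjusted p = 0.24). Its groups did not overlap, and the control mean was 8.70. The chitin mean of 6.84 lay beside the cellobiose arrays, so the low level was not particular to cellobiose. A part of sugar supply in it was not tested. AT5G61590 encodes DEWAX, an AP2/ERF factor that represses genes of wax synthesis. It had 7.54, 8.36 and 8.81 with cellobiose, against 8.96, 9.44 and 9.88 with OGs, again without overlap. The chitin mean was 7.85, and all OGs arrays lay below the control mean of 10.17. AT3G05730 varied most, with 5.44, 8.52 and 4.03 with cellobiose, against 9.05, 8.66 and 8.68 with OGs, so cellobiose replicate 2 lay beside the OGs arrays. AT3G48650, annotated as a transcribed pseudogene, had 4.54, 4.41 and 4.47 with cellobiose, against 5.52, 4.77 and 7.03 with OGs.

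To compare the fragments over genes not chosen from either group, probe sets were taken from chitin against control. Such lists cover the response shared with chitin. They leave out genes that a fragment moves and chitin does not, so they do not measure the whole response to either fragment. The log2 ratios of that comparison use no cellobiose or OGs array, but its adjusted p draws on the spread of all 12 arrays. Lists from a limma fit of only the 6 chitin and control arrays, an alternative added after the data were seen, gave a median difference of 0.22 over 1145 raised probe sets and -0.10 over 750 lowered ones. At an adjusted p under 0.05 chitin raised 1130 probe sets (4.97% of those tested) and lowered 872 (3.83%). Over those raised, cellobiose minus OGs had a median of 0.22, against -0.01 over all probe sets, and 884 (78.2%) were higher with cellobiose, against 47.1% of all. Over those lowered, the median was -0.12 and 183 (21.0%) were higher with cellobiose. The difference grew with the size of the chitin response. Its median was 0.36 over the 708 probe sets raised at least 2-fold by chitin, 0.58 over the 349 raised at least 4-fold and 0.84 over the 157 raised at least 8-fold. Of the 1130, 6 were called (0.531%, against 0.044% of all), and 247 (21.9%) had groups without overlap, against 8.92% of all, with cellobiose above in 232 and OGs above in 15. For 771 (68.2%) of the 1130 the 95% interval stayed within 2-fold, against 95.5% of all.

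The arrays show how far the replicates bear this out. Over the probe sets raised at least 8-fold by chitin, the median log2 ratio to the control mean was 3.93, 3.42 and 3.51 with cellobiose, against 2.73, 2.14 and 3.35 with OGs. The groups did not overlap there, and OGs replicate 3 was the array nearest to the other group. Over all 1130 raised probe sets the medians were 1.41, 1.09 and 1.06 with cellobiose, against 0.95, 0.70 and 1.21 with OGs, so OGs replicate 3 exceeded cellobiose replicates 2 and 3 and the groups overlapped. By pair, the median difference over the 1130 was 0.41, 0.38 and -0.07, and over the 872 lowered probe sets -0.18, -0.24 and 0.03. Pair 3 thus did not share the direction of the other two in either list. OGs replicates 2 and 3 moved these medians most among single arrays. Without OGs replicate 2 the median was 0.11 over the raised and -0.06 over the lowered probe sets, and without OGs replicate 3 it was 0.40 and -0.19. Over the lowered probe sets the sign also depends on the scaling, with a median of 0.03 after scaling to RNA spike-ins, which moves the median of all probe sets by 0.14. Control replicate 1 itself lay above the control mean, at 0.20 over the 1130 and 0.65 over those raised at least 8-fold.

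**Figure D3:**
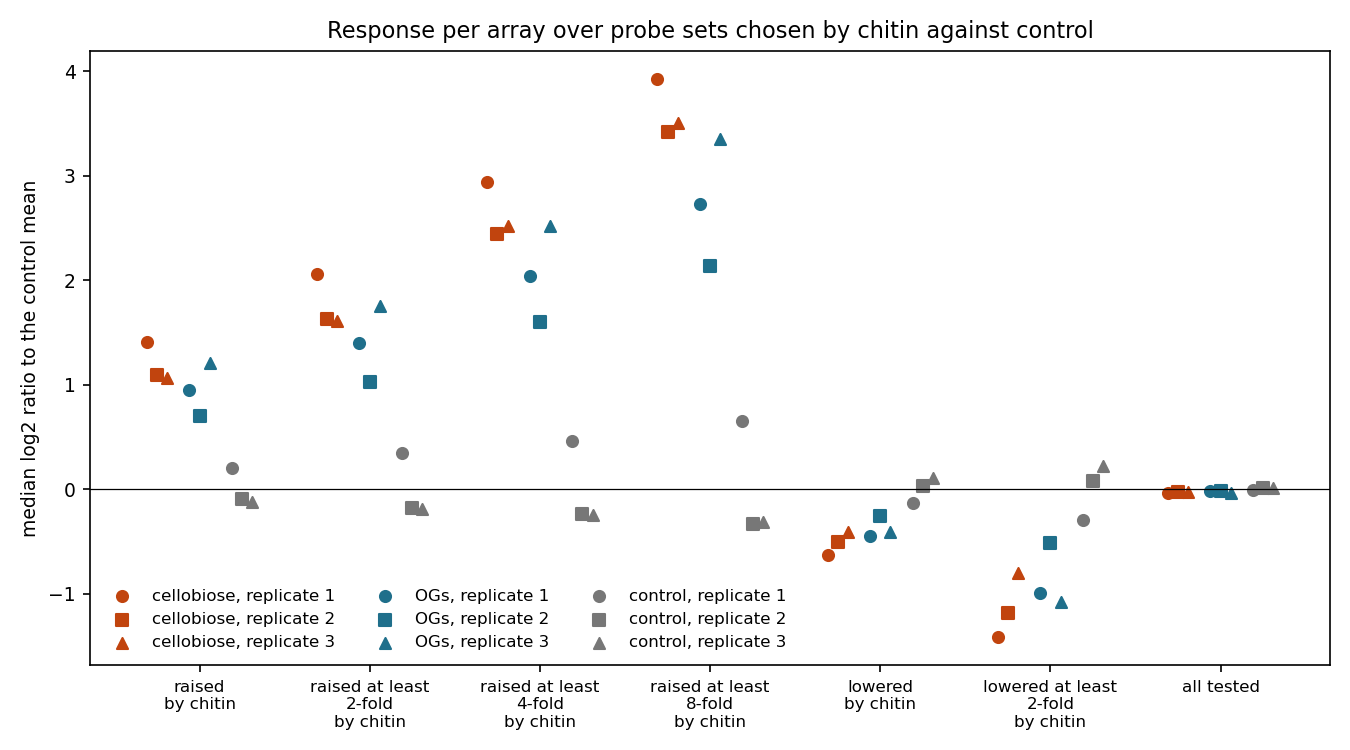
Median log2 ratio to the control mean (vertical axis) per array over probe sets chosen by chitin against control (horizontal axis), with cellobiose left of OGs and control at the right of each set. Cellobiose arrays are above OGs arrays in the set raised at least 8-fold (3.42 to 3.93 against 2.14 to 3.35), and OGs replicate 3 overlaps them in the wider sets.

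The large single differences on the cellobiose side fell mostly among genes raised by chitin. Of the 98 probe sets at least 2-fold higher with cellobiose, 92 (93.9%) were raised by chitin, against 4.97% of all probe sets. They are 8.14% of the 1130, against 0.431% of all. Of the 33 at least 2-fold lower with cellobiose, 8 (24.2%) were lowered by chitin, against 3.83% of all. They are 0.917% of the 872, against 0.145% of all. Raised by chitin were 4 of the 33 (12.1%, against 4.97% of all), and most of the 33 were in neither list.

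The named genes with the largest rises with chitin were transcription factors, signalling proteins, a channel, a lipase and a lignin enzyme, among others. None was called between cellobiose and OGs. Of the 157 probe sets raised at least 8-fold by chitin 4 (2.55%) were called, and 0.044% of all, so the absence of calls says little about these genes. WRKY53 and WRKY22 encode transcription factors of immune signalling. WRKY53 had 12.80, 12.54 and 12.70 with cellobiose, against 11.77, 11.69 and 12.20 with OGs, a difference of 0.79 (95% interval 0.18 to 1.40; limma adjusted p = 0.805). Both were far above the WRKY53 control mean of 6.62. WRKY22 had 10.54, 10.53 and 9.87 with cellobiose, against 9.60, 8.34 and 9.61 with OGs. For both factors the cellobiose and OGs arrays did not overlap. PUB24, a U-box ubiquitin ligase known to dampen immune signalling, averaged 10.26 ± 0.24 with cellobiose and 9.17 ± 0.29 with OGs (SD, n = 3 each; difference 1.09 ± 0.18, SE; limma adjusted p = 0.146). TET9, a tetraspanin of the plasma membrane, had 8.07, 7.23 and 7.43 with cellobiose, against 6.28, 5.43 and 6.72 with OGs. For both, every cellobiose array lay above every OGs array.

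Of the other chitin-responsive genes, some separated the fragments and some did not. STZ, a zinc finger protein that represses other genes under stress, had 12.54, 10.89 and 12.03 with cellobiose, against 11.52, 10.90 and 11.90 with OGs (0.38; 95% interval -1.10 to 1.87). GLR2.8, a glutamate receptor-like channel, had 6.88, 5.17 and 5.53 with cellobiose, against 5.01, 4.76 and 6.97 with OGs (0.28; interval -1.18 to 1.74). AR781 had 12.75, 11.54 and 11.98 with cellobiose, against 11.83, 10.60 and 11.58 with OGs. Cellobiose was higher in 3 of 3 pairs there, but the groups overlapped. These intervals are wide, and for STZ and GLR2.8 differences of more than 2-fold in either direction lie inside them. Among the genes with the largest falls with chitin, LEA4-5, of the late embryogenesis abundant proteins, differed by 0.00 (interval -1.20 to 1.20). It had 6.23, 5.90 and 6.67 with cellobiose, against 7.04, 7.15 and 4.61 with OGs, with OGs replicate 3 below all cellobiose arrays. SIM, an inhibitor of the cell cycle that promotes endoreduplication, differed by -0.53, TET5 by -0.43, XERICO, a RING protein that raises abscisic acid, by -0.41 and SIS by -0.11. The groups did not overlap for SIM (interval -1.01 to -0.05) and TET5 (interval -0.72 to -0.13), and they overlapped for XERICO and SIS. None of these passed the test.

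**Figure D4:**
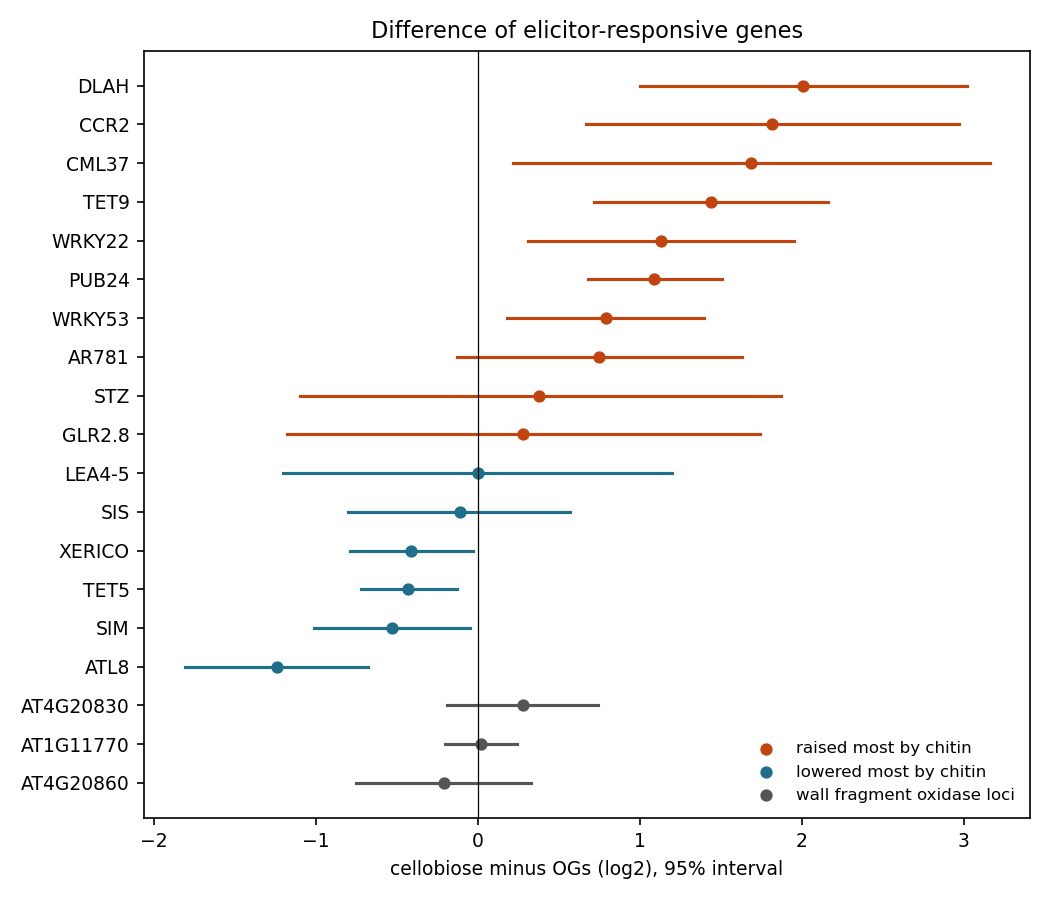
Difference between cellobiose and OGs (log2; point) with its 95% interval (line) for the 10 named genes raised most by chitin, the 6 lowered most, and the 3 wall fragment oxidase loci. All 10 of the raised genes have estimates above 0, and the intervals of AR781, STZ and GLR2.8 include 0.

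Genes of the wall and of its fragments were followed as lists, whose small medians also move with the spike-in scaling. Since 0.044% of all probe sets were called, the absence of a call in this or a later list says little about its members. Among 22 beta-glucosidases, BGLU27 was the 1 called, and the median difference of the list was 0.04. For 20 of the 22 the interval stayed within 2-fold. Many of the 22 read under 5 on the log2 scale, where levels may be at background and a narrow interval says little. BGLU27 was the 1 of the 22 that passed with cellobiose against control, where 4.73% of all probe sets rose, so that count is near the background. The 3 loci listed as oxidases of wall fragments carry no name in the annotation used here, and their place on the list rests on general knowledge of a family that oxidises OGs and cellulose fragments. AT4G20830 had 11.94, 12.04 and 11.75 with cellobiose, against 11.60, 11.30 and 12.01 with OGs (difference 0.28; 95% interval -0.19 to 0.74). AT4G20860 averaged 11.17 ± 0.15 with cellobiose and 11.38 ± 0.38 with OGs (SD, n = 3 each; difference -0.21; interval -0.75 to 0.33). Both overlapped between the fragments, and both passed against control with either of them. AT1G11770 read between 3.23 and 3.57 on the 6 arrays, with a difference of 0.02 (interval -0.20 to 0.24). For all 3 the interval excluded a 2-fold difference. For AT1G11770 this says little, since it read under 5 on the log2 scale, a range that may be at background.

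Of 7 pectin enzymes none was called, and the median was 0.09. ATPMEPCRB, a pectin methylesterase, which removes methyl groups from pectin, had 7.92, 8.13 and 7.54 with cellobiose, against 8.22, 7.42 and 8.87 with OGs. Of 26 genes of cellulose and hemicellulose synthesis and turnover, 19 were higher with cellobiose, the median was 0.13, and none was called. GH9C3, an endoglucanase, had 6.15, 6.61 and 5.94 with cellobiose, against 6.01, 5.54 and 5.45 with OGs. Of 29 xyloglucan enzymes and expansins, 22 were higher with cellobiose, with the same median of 0.13, and none was called. EXLA3, an expansin-like protein, had 10.46, 9.74 and 10.01 with cellobiose, against 8.87, 8.20 and 8.71 with OGs. It differed by 1.47 (95% interval 0.21 to 2.74), but control replicate 1, at 8.60, lay within the range of the OGs arrays. FER and THE1, receptor kinases that monitor the wall, differed by 0.00 and 0.19. Neither was called.

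Signalling genes gave a mixed picture. None of 19 calcium sensors, kinases and channels was called, and their median was 0.04, with a range of -0.88 for CML23 to 1.69 for CML37. CML42, a calmodulin-like protein, had 11.85, 11.93 and 11.67 with cellobiose, against 10.87, 10.38 and 11.15 with OGs. CML23, of the same family, had 7.25, 6.35 and 6.98 with cellobiose, against 7.63, 7.63 and 7.95 with OGs. These lay on opposite sides without overlap. Of 7 WRKY factors, 4 were higher and 3 lower with cellobiose, with a median of 0.00, and 3 rose past the threshold against control with either fragment, as 4.73% of all probe sets did with cellobiose and 3.18% with OGs. WRKY6 had 10.32, 10.43 and 10.18 with cellobiose, against 9.96, 9.76 and 9.93 with OGs. Of 14 U-box and RING ligases 11 were higher with cellobiose (median 0.14) and none was called.

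Of 7 early immunity markers 6 were higher with cellobiose, with a median of 0.57, and none was called. PUB23, a U-box ligase related to PUB24, had 12.88, 12.42 and 12.50 with cellobiose, against 11.86, 11.27 and 11.94 with OGs. AT1G26380, singled out after its values were seen as the member with the largest difference, had 8.98, 9.37 and 8.97 with cellobiose, against 5.76, 6.26 and 10.31 with OGs. Its difference of 1.66 had an interval of -0.25 to 3.58, since OGs replicate 3 was above every cellobiose array. Of 5 immune receptors and kinases none was called, and for all 5 the interval stayed within 2-fold. BIK1, a kinase that relays signals from immune receptors, had 10.04, 10.37 and 10.29 with cellobiose, against 9.86, 9.85 and 10.43 with OGs.

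Hormone and metabolic lists mostly had medians close to that of all probe sets. The median was 0.08 over 14 auxin genes, -0.05 over 7 jasmonate and ethylene genes, -0.01 over 14 abscisic acid and water stress genes, 0.10 over 2 salicylate genes and 0.11 over 3 AP2/ERF factors. It was 0.04 over 7 genes of phenylpropanoid and lignin synthesis, 0.07 over 2 of glucosinolate and camalexin synthesis, 0.00 over 83 detoxification transferases, -0.05 over 18 sugar and energy status genes and -0.21 over 3 heat shock genes, all 3 of them lower with cellobiose. Single members lay further out, up to 1.82 for CCR2 and down to -1.24 for ATL8. No member of these lists was called. The lists hold only genes matched by locus or symbol and need not cover whole families. AT5G61590, an AP2/ERF factor that differed by -1.19, is not among the 3 listed here. For 79 of the 83 transferases the interval stayed within 2-fold. All 6 reference genes did so too, with differences of -0.09 to 0.08.

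Autophagy genes, which encode the machinery that delivers cell contents to the vacuole, stood together. All 11 were lower with cellobiose, with differences of -0.34 to -0.02 and a median of -0.15, but after spike-in scaling only 5 of the 11 were, with a median of 0.00 beside 0.14 over all probe sets. None was called. ATG8G, a ubiquitin-like protein of the autophagosome membrane, had 7.30, 7.27 and 7.64 with cellobiose, against 7.66, 7.74 and 7.82 with OGs, and the groups did not overlap. ATG8F had 10.58, 10.85 and 10.99 with cellobiose, against 11.05, 11.24 and 10.92 with OGs, with overlap. Against control, 6 of the 11 fell past the threshold with cellobiose and none with OGs, in comparisons that share their controls. The share of all probe sets that did so was 3.91% with cellobiose and 0.884% with OGs. The interval of the direct difference stayed within 2-fold for all 11.

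Photosynthesis genes varied among the cellobiose and among the control arrays. SBPASE, a phosphatase of the Calvin cycle, had 5.55, 7.49 and 5.16 with cellobiose, against 7.36, 7.11 and 7.14 with OGs. RCA, which encodes Rubisco activase, had 9.86, 10.93 and 9.63 with cellobiose, against 10.79, 10.86 and 10.48 with OGs. In both genes cellobiose replicates 1 and 3 were low and replicate 2 was not. Among the control arrays it was replicate 2 that was low, with 7.89, 6.51 and 7.76 for SBPASE and 11.53, 10.48 and 11.33 for RCA. A list of 49 photosynthesis genes, drawn up by symbol after this had been seen, had a median level of 6.96, 7.75 and 6.69 with cellobiose, against 7.73, 7.57 and 7.71 with OGs and 7.89, 7.18 and 7.83 in control. Sums of their log2 intensities were 328.3 to 364.0 with cellobiose and 353.2 to 363.8 with OGs, against 348.6 to 376.7 in control. As sums of logarithms they do not give an amount of transcript. In the fit 46 of the 49 were lower with cellobiose, with a median of -0.29, and 36 of the 49 after spike-in scaling, and none was called. By pair the median was -0.49, 0.23 and -0.72.

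With replicate 2 of all treatments left out, the limma fit called 86 of 22746 probe sets, 8 higher and 78 lower with cellobiose. Of the 78, 28 have a single gene, and 15 of those are on the photosynthesis list, which holds 49 of the 13513 single-gene probe sets. That list was drawn up after the pattern was seen. The omission also takes out the cellobiose array that was not low, so these calls restate the pattern. SBPASE then had an adjusted p of 0.00807 and RCA of 0.0343. Over these 78 probe sets the median level was 6.98, 8.43 and 6.69 with cellobiose, against 8.27, 8.02 and 8.13 with OGs. AT3G05730 showed the same division of the cellobiose arrays, and its control replicate 2, at 5.98, was below the other control arrays, at 9.01 and 8.83. Among the 10 called probe sets, 263063_s_at also had its cellobiose replicate 2 apart, at 9.42 against 8.52 and 8.50, while BGLU27 had 7.47 on replicate 2 and 7.44 on replicate 1. The part of shoot tissue or of plastid transcript in the differences was not tested.

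**Figure D5:**
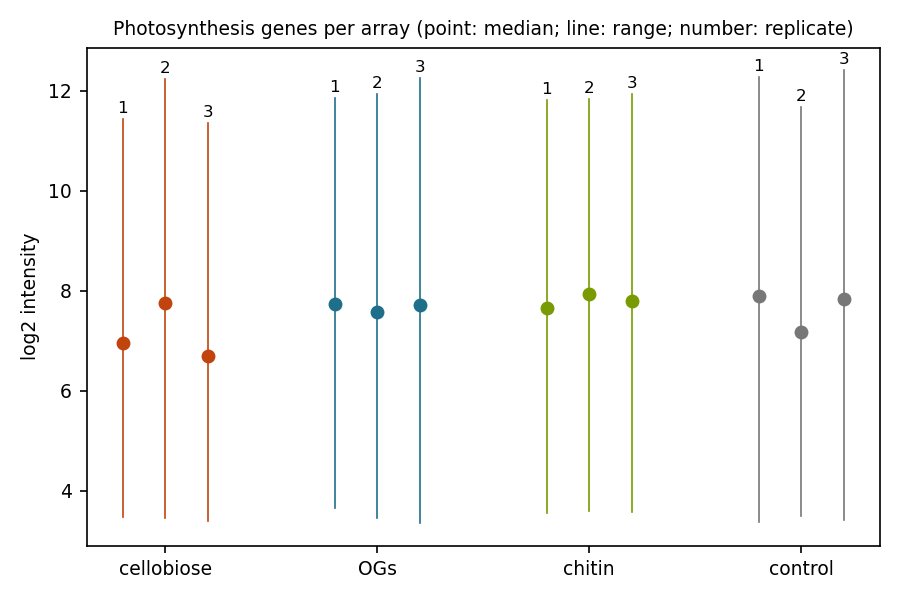
Median (point) and range (line) of the log2 intensity of 49 photosynthesis genes on each array, with the replicate number above each line, for cellobiose, OGs, chitin and control. Cellobiose replicates 1 and 3 have medians of 6.96 and 6.69, below the other cellobiose array at 7.75 and the OGs arrays at 7.57 to 7.73, and control replicate 2 lies below the other control arrays.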

How the data were processed

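The deposited table holds intensities per probe set on the log2 scale. The authors normalised with GCRMA, per the design text of the series. Affymetrix Expression Console is named, per the submitters' processing notes, without a version or a role, and which of them made the deposited table is not settled. Of 22810 rows, 64 Affymetrix control probe sets were set apart and 22746 tested. Names come from the platform annotation, updated by Entrez gene identifier through RefSeq TAIR10.1. It lists 13513 probe sets with 1 gene (59.4%), of which 13436 matched RefSeq and 1580 have a symbol, and 503 with several. The other 8730 are unnamed here.

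Differences were tested with limma 3.58.1 in R 4.3.3. A single model with treatment and replicate number was fitted to 12 arrays, with 6 residual and 3.09 prior degrees of freedom, and eBayes at its default settings. Tests were two-sided, p was adjusted by Benjamini-Hochberg over all tested probe sets, and 0.05 was the threshold. The replicate number entered as a block because the authors took ratios per sample pair, per the same design text. A single pair of compounds was compared.

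The named genes were all called probe sets and the 8 largest uncalled differences of each direction (same way in 3 pairs, unadjusted p under 0.05, 1 gene). To these were added the 10 largest rises and 6 largest falls with chitin (called against control, with a symbol). Up to 2 members of most lists, by smallest p, and 3 oxidase loci were also named. Other lists were described mostly by their medians, and PME61, BGLU36, LAC16 and AT3G50990 were taken out by name, with the values known. The groups compared and the lists were chosen with earlier results of these data known. Lists are described by counts and medians, without a test. They took single-gene probe sets by locus, or by symbol and synonym. Only 1580 of these probe sets have a symbol, so a list need not cover a whole family. On simulated arrays with 50 shifted probe sets per size, the fit recovered 27, 46, 45 and 50 at shifts of 0.5, 1, 2 and 3 on the log2 scale, with 7 false calls among the unshifted of 22746 probe sets. The simulated noise was independent between arrays, without replicate effects, and the shifted probe sets were drawn at random. These counts therefore do not give the power for variable, elicitor-responsive genes in the real arrays. Alternatives changed the block, the arrays, the variance model, a filter on low levels and the scaling. Scanner files were not used here.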

Additional observations from a re-analysis of the deposited data

How the results depend on the processing

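The count of 10 calls moved with most settings. Without the replicate block it was 19 (14 higher, 5 lower with cellobiose), 9 of the 10 among them. Same-numbered cellobiose and OGs arrays deviated from their group means with correlations of 0.301, -0.082 and 0.016. Differently numbered arrays gave -0.494 to 0.498, the highest for cellobiose replicate 3 with OGs replicate 2. Same-numbered arrays were thus not the most alike, and the numbers were not shown to mark pairs. Replicate 1 did carry a shared effect in some genes: AT1G76640, singled out after its values were seen, had 10.73, 9.89, 10.57 and 10.54 on the replicate 1 arrays of cellobiose, OGs, chitin and control, and 6.24 to 6.93 on the other arrays. The count was 0 with only the 6 arrays, 0 with ordinary tests without variance moderation (1198 at an unadjusted p under 0.05) and 0 after scaling to 24 poly-A spike-in probe sets with ordinary tests (476 at an unadjusted p under 0.05). It was 1, 257748_at, over the 14880 probe sets with a mean of at least 5, which leaves out BGLU27. An intensity trend gave 10, and centring on array medians gave 9. Leaving out a single array or a replicate of all treatments gave 0 to 86 calls. The count was 29 without OGs replicate 3 and 86 without replicate 2, 0 without replicate 1 (791 at an unadjusted p under 0.05), and 1 in every other omission. The 10 kept their direction in every setting that tested them.

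Spike-in scaling moved the median of all probe sets by 0.14 and the median over probe sets lowered by chitin to 0.03, and relative to that shift the lowered list stayed below the rest. SIS moved to 0.04 under it. Across omissions the difference changed sign for SIS (-0.61 to 0.35), ATPMEPCRB (-0.81 to 0.21), AT4G20860 (-0.40 to 0.10), AT1G11770 (-0.06 to 0.14), STZ (-0.09 to 0.83), GLR2.8 (-0.52 to 1.14) and LEA4-5 (-1.02 to 0.63). Without OGs replicate 3, PUB24, AT5G37490, AT4G15975 and AT2G23270 passed, and without replicate 2, AT3G05730, SBPASE and RCA did. Over the lists chosen by chitin, omissions gave medians of 0.11 to 0.40 for raised and -0.21 to -0.06 for lowered probe sets; pairwise omission of replicate 1 gave 0.14 and of replicate 3 gave 0.40 for raised, of replicate 2 -0.07 and of replicate 3 -0.21 for lowered. The causes were not tested.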
